A study of Mus with 12 samples.

Results

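The 6 long noncoding RNAs that carry microRNA genes within their transcripts (Mir99ahg, Mir100hg, Mir17hg, Mir22hg, Mir155hg and Dnm3os) and the abundant nuclear RNAs Malat1 and Neat1 were examined in the uterus of pregnant mice. The members were found by name, as rows that list one of these 8 genes together with an Ensembl transcript. The table of the implantation stage gave 7 such rows of 87235, and the table of the labor stage gave 8 rows of 40787. All 8 genes are named in the implantation table and 7 of them in the labor table, since Mir100hg is listed there under an older name. The rule itself uses names only, of genes picked with earlier results of these data known.

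The samples were whole uteri of 12 ICR mice, an outbred stock, which were mated at 60 days of age, with no treatment named. Each of 4 days of pregnancy had 3 mice: E0.5 and E4.5 make up the implantation stage, and the labor stage holds E15.5 and E18.5. E0.5 and E18.5 are the days on which the study took progesterone to be low, so E0.5 was compared with E4.5 and E18.5 with E15.5. Each library is 1 mouse, and p-values measure the spread between mice of the same day. The tissue was taken whole, so smooth muscle, stroma, epithelium, vessels and blood cells contributed to each value, and in such bulk tissue fewer cells of a type and less RNA per cell cannot be told apart. The 2 tables come from separate assemblies that were normalized separately, so levels were compared within a table only.

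A microRNA host is the long precursor RNA from which the enzymes Drosha and Dgcr8 cut a hairpin, which Dicer1 then trims to the mature microRNA. These libraries measured the long RNA and not the mature microRNA, and cutting can lower the level of the long RNA. Malat1 gathers in nuclear speckles beside splicing factors, and Neat1 is the scaffold around which paraspeckles form. In the uterus, progesterone keeps smooth muscle quiet during pregnancy, and microRNAs take part in that control.

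The hosts carry different families. Mir17hg is the precursor of the miR-17-92 cluster, known for promoting proliferation, and its row names Mir17, Mir18, Mir19a, Mir20a, Mir19b-1 and Mir92-1. Mir99ahg and Mir100hg are related clusters, each with 1 gene of the let-7, miR-99 or miR-100 and miR-125b families. Dnm3os lies antisense within the gene of the GTPase Dnm3 and carries Mir199a-2 and Mir214, which are known in mesenchymal cells. Mir22hg carries Mir22, and Mir155hg carries Mir155, an immune cell microRNA. RefSeq (GRCm38) places all 16 of these microRNA genes inside the implantation row of their host, of which 12 are named in that row and the other 4 have rows of their own.

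Several rows hold more than a member. At the implantation stage, Malat1 and Neat1 share 1 row with protein-coding genes, Sipa1 and Pcnx3 among them, and with Gm27694, Gm27533, Gm27505 and Gm28006, which runs from 5651185 to 5845478 of chromosome 19, minus strand. RefSeq places Malat1 at 5795690 to 5802672 and Neat1 at 5824708 to 5845480 of that chromosome, with 22035 bases between them. A value of that row cannot be assigned to either RNA. Mir22hg shares its row with the protein-coding gene Tlcd2 in both tables. In the labor table, Malat1 has a row with Gm27694 and is named in another row with Gm20417, Syvn1, Slc25a45 and Gm37376, and Neat1 has a row of its own with 3 small predicted genes.

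Between E0.5 and E4.5, 0 of the 6 tested member rows passed the study's criterion, at least 1 in either direction on the log2 fold change (log2FC) scale and p under 0.05 before adjustment, against 12.1% of the 52738 rows tested with edgeR. None of the 6 reached an unadjusted p under 0.05, against 17.6% of all rows, none passed the adjusted p of 0.05 that 1.4% of all rows passed, and DESeq2 gave 0 by both rules too. The groups did not overlap for 1 of the 6, Dnm3os, against 25.8% of all rows. The estimates were higher at E0.5 for 3 rows and lower for 3, with a median log2FC of 0.14, against -0.03 for all rows. The study discusses Mir99ahg and Dnm3os beside its differentially expressed long noncoding RNAs, and refers to single transcripts for another of them. The rows tested here merge transcripts, and in places genes, so these counts are not the study's own.

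At E18.5 against E15.5, 1 of 8 tested member rows passed the criterion, the row of Gm20417 that also names Malat1, against 5.6% of 29597 rows tested with limma. No member row passed the adjusted p, against 0.0439% of all rows, and the smallest adjusted p was 0.247. The groups did not overlap for 1 row, again Dnm3os, against 19.7% of all rows. The estimates were higher at E18.5 for 2 rows and lower for 6, with a median log2FC of -0.09 against 0.02 for all rows.

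**Figure D1:**
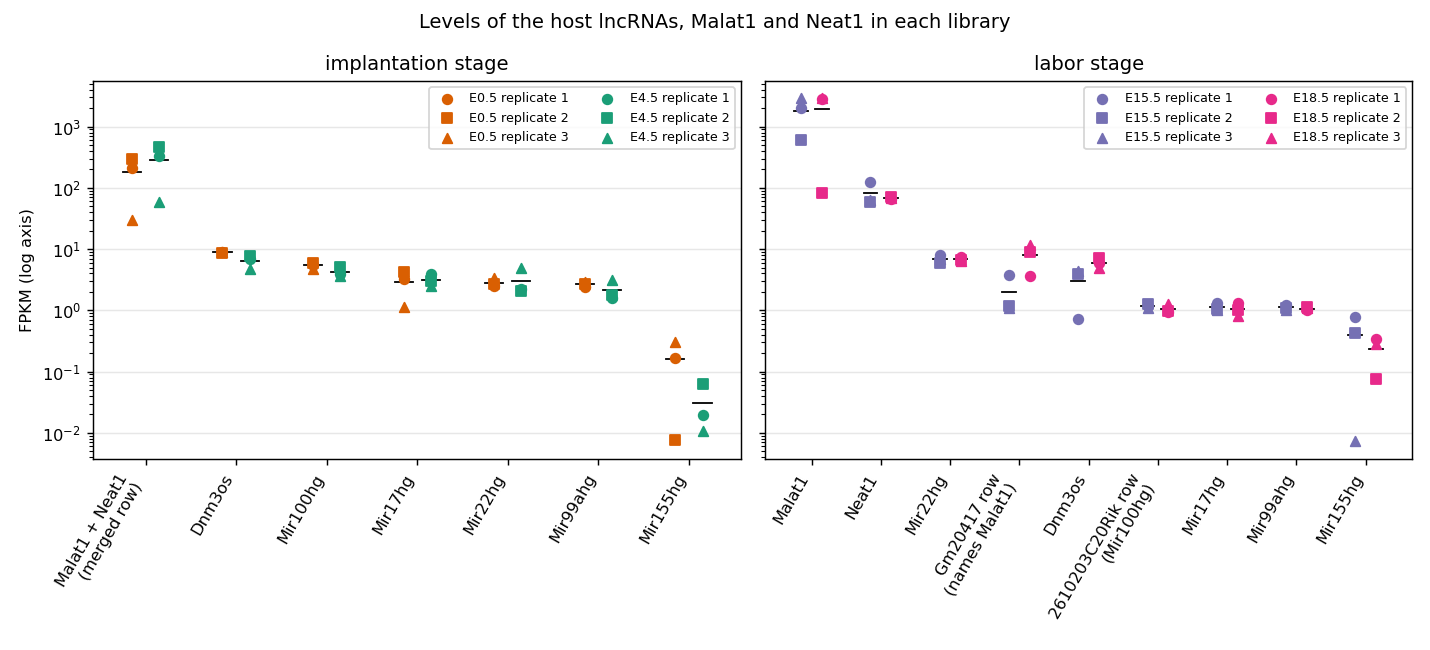
FPKM of each member row in each library (log axis, points are mice, black lines are means of 3), for the implantation stage (left) and the labor stage (right). The merged row spans 30.2 to 465 FPKM and the labor row of Malat1 82.2 to 2908 FPKM, while most host rows lie between 1 and 10 FPKM on every day.

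FPKM counts fragments per kilobase of transcript, scaled to library size, so levels can be ordered between genes of a table. At the implantation stage the merged row of Malat1 and Neat1 came first with a mean over the 6 libraries of 233 FPKM, followed by Dnm3os at 7.63, Mir100hg at 4.82, Mir17hg at 3.03, Mir22hg at 2.95 and Mir99ahg at 2.43 FPKM. Mir155hg came last at 0.0949 FPKM. The ranges of neighbours in that order overlapped from Dnm3os down to Mir99ahg, while the merged row lay above Dnm3os and Mir155hg below Mir99ahg in all libraries.

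Malat1 came first in the labor table, with a mean of 1886 FPKM, and Neat1 second with 75 FPKM, and their ranges overlapped through Malat1 in E18.5 replicate 2 and Neat1 in E15.5 replicate 1, although Malat1 was above Neat1 within every library. Mir22hg followed at 6.89 FPKM, below Neat1 in all libraries, then Dnm3os at 4.5 FPKM. The 2610203C20Rik row, under the older name of Mir100hg, was at 1.12 FPKM. Mir17hg and Mir99ahg came next at 1.10 FPKM each and Mir155hg at 0.318 FPKM. From Mir22hg down to Mir99ahg the ranges of neighbours overlapped, and Mir155hg lay below Mir99ahg in all libraries. By mean, Dnm3os thus had the highest host row of the first table and Mir22hg of the second. The Mir22hg row also holds Tlcd2, and a row named Tlcd2 alone was at 8.12 FPKM. Its level therefore cannot be assigned to the host alone.

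Dnm3os had groups without overlap at each stage, as did 25.8% and 19.7% of all rows. Its implantation row runs from 162217623 to 162225550 of chromosome 1, plus strand. It was at 8.80, 8.58 and 9.06 FPKM in the mice at E0.5 and at 6.79, 7.74 and 4.80 FPKM at E4.5. Every mouse at E0.5 was above every mouse at E4.5, and E4.5 replicate 3 was the lowest. The means were 8.82 ± 0.239 and 6.44 ± 1.5 FPKM (SD, n = 3), a log2FC of 0.47 (standard error, SE, 0.21, edgeR adjusted p = 0.308). It was 0.29 without E4.5 replicate 3 and 0.27 without both replicates 3. In E4.5 replicate 3 the sum over 7 uterine stroma markers was also the lowest, at 152.3 FPKM against 283 to 417 FPKM in the other 5 libraries, and its part in the level of Dnm3os was not tested.

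Near labor, Dnm3os was at 0.727, 3.85 and 4.43 FPKM in the mice at E15.5 and at 5.93, 7.19 and 4.89 FPKM at E18.5. Here too each mouse of the low-progesterone day was above each mouse of the other day, and E15.5 replicate 1 stood far below the rest. The means were 3.00 ± 1.99 and 6.0 ± 1.15 FPKM (SD, n = 3), a log2FC of 1.3 (SE 0.62, limma adjusted p = 0.458). Without E15.5 replicate 1 the log2FC was 0.51 (adjusted p = 0.427), and without E15.5 replicate 3 it was 1.74, which passed the criterion, with an adjusted p of 0.315. E15.5 replicate 1 also had a sum of 10.2 FPKM over 5 yolk sac markers, against 162 and 1048 FPKM in the other mice at E15.5 and 218 to 792 FPKM at E18.5, with Apoa4 at 0 in it. Its sum over 9 leukocyte markers was 107 FPKM, against 69.6 to 85.8 FPKM in the other 5 libraries. Of that sum S100a8 made up 24.0 FPKM. Of the 7 tested leukocyte markers, S100a8, S100a9, Ptprc, Adgre1 and Itgax were at their highest of the 6 libraries there, Cd68 was in between and Csf1r was at its lowest. The sum over 7 uterine stroma markers was lowest there too, at 877 FPKM against 992 to 1365 FPKM. Such a sum mostly follows its most abundant markers, so it need not hold for each of the 7. The part of these markers in the level of Dnm3os was not tested. The day effects of Dnm3os at the 2 stages differed by -0.82 on the log2 scale, implantation minus labor (SE 0.72, limma adjusted p = 0.594), and by -0.037 without E15.5 replicate 1.

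Dnm3, the gene on the other strand, had the opposite order of days at the implantation stage. It was at 0.551, 0.441 and 0.505 FPKM at E0.5 and at 0.948, 0.836 and 1.22 FPKM at E4.5, again without overlap. The log2FC was -0.98 (SE 0.20, edgeR adjusted p = 0.0706), just short of the fold limit of the criterion, which it passed without E0.5 replicate 1 (-1.03) or E4.5 replicate 2 (-1.10). Between E15.5 and E18.5, Dnm3 had a log2FC of 0.26 (SE 0.24, limma adjusted p = 0.695). Whether the authors' counting used strand is not given in the sources used here, so reads of Dnm3os and of the Dnm3 introns around it are separated only as far as the assembly separated them.

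**Figure D2:**
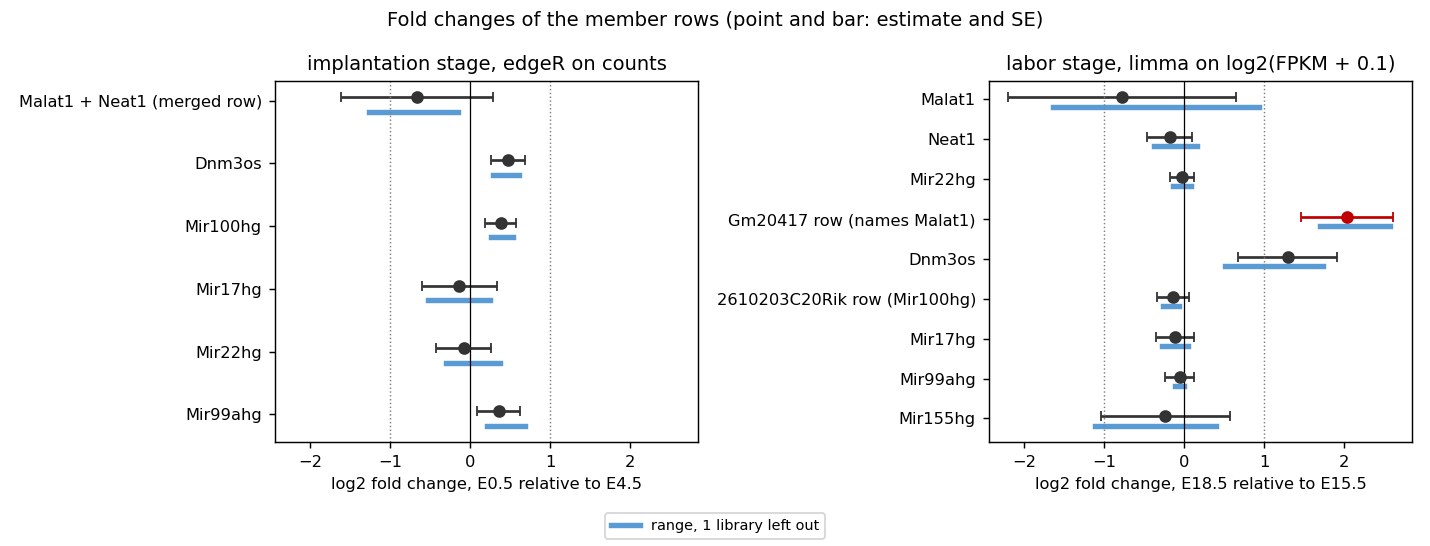
Log2 fold changes of the member rows, E0.5 relative to E4.5 (left, edgeR) and E18.5 relative to E15.5 (right, limma), with standard errors as bars and the range over fits that each leave out 1 library in blue. The dotted lines mark the fold limit of the criterion, the row in red passed it, and Mir155hg at the implantation stage, below the filter on low rows, is left out.

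Mir99ahg and Mir100hg, the hosts with let-7 genes, had estimates on the side of E0.5. The implantation row of Mir99ahg runs from 77236317 to 77691403 of chromosome 16, plus strand, and includes Mir99a, Mirlet7c-1 and the predicted gene Gm37694. It was at 2.44, 2.73 and 2.95 FPKM at E0.5 and at 1.57, 1.80 and 3.11 FPKM at E4.5. The mice at E4.5 were the lowest and also the highest of the 6, the highest being replicate 3. The log2FC was 0.36 (SE 0.27, edgeR adjusted p = 0.529).

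Without E4.5 replicate 3 the log2FC of Mir99ahg was 0.69 with an adjusted p of 0.0440, the only fit among 16 alternatives in which a member row of this stage passed the adjusted p. That fit called 3526 of 52738 rows by the adjusted p, against 739 with all libraries. E4.5 replicate 3 had a sum over 6 ovary markers of 838 FPKM, against 4.26 to 6.44 FPKM in the other 5 libraries, all 6 markers being highest in it. The oviduct gene Ovgp1 was at 69.6 FPKM there against 3.54 to 12.1 FPKM, and 6 smooth muscle markers summed to 201 FPKM against 779 to 1192 FPKM. The part of this makeup in the level of Mir99ahg was not tested.

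The row of Mir100hg runs from 41327077 to 41716994 of chromosome 9, plus strand, and includes Mir125b-1 and 3 predicted genes. It was at 5.44, 6.04 and 4.79 FPKM at E0.5 and at 3.94, 5.14 and 3.58 FPKM at E4.5. The groups overlapped by 1 mouse. The log2FC was 0.38 (SE 0.19, edgeR adjusted p = 0.354), and it lay between 0.27 and 0.53 with each library left out.

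Besides these rows, the assembly left shorter pieces that carry a member's name without an Ensembl transcript. The implantation table has 21 of them, of which 7 were named Mir99ahg and 11 Mir100hg. The counts of the Mir99ahg pieces, which are rows apart from the host row, summed to between 181.3% and 215% of the count of that row. Of these 7 pieces, 4 were higher and 3 lower at E0.5, with a median log2FC of 0.27. Those of the Mir100hg pieces summed to between 48.5% and 89.7% of the count of their host row, and 9 of 11 were higher at E0.5, with a median log2FC of 0.52 and 3 with an unadjusted p under 0.05, against 17.6% of all rows. No piece of either host passed the criterion, and the smallest adjusted p among the Mir100hg pieces was 0.160. Of the 11 Mir100hg pieces, 6 were on the minus strand, opposite to the host row, 2 on the plus strand and 3 without a strand. Pieces of a locus are not replicates.

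Mir99ahg differed little between E15.5 and E18.5. The row was at 1.22, 1.11 and 1.03 FPKM at E15.5 and at 1.0, 1.13 and 1.08 FPKM at E18.5. The groups overlapped, and the log2FC was -0.06 (SE 0.18, limma adjusted p = 0.921). Only 6.88% of the 18416 rows with at least 1 FPKM had a smaller spread within days. All 23 pieces without an Ensembl transcript in this table were named Mir99ahg, 10 higher and 13 lower at E18.5, with 0 past the criterion and 0 with an unadjusted p under 0.05.

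Mir100hg itself is not a name in the labor table. Its older symbol 2610203C20Rik heads a row with CT025619.5 and Gm8707 that shares 14 of the 53 Ensembl transcripts of the implantation row. This row was at 1.16, 1.29 and 1.07 FPKM at E15.5 and at 0.935, 0.988 and 1.25 FPKM at E18.5, with a log2FC of -0.14 (SE 0.20, limma adjusted p = 0.799). The rows of CT025619.4 and of Gm28119 with Mir125b-1, which also share transcripts with the Mir100hg row, had log2FC values of -0.33 and -0.26 with adjusted p of 0.656 and 0.814. The groups overlapped in all 3 rows.

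Some microRNA genes were kept apart from their host by the assembly. The let-7 gene Mirlet7c-1, in a row of its own near labor, was at 2.61, 2.59 and 1.02 FPKM at E15.5 and at 0.026, 0.544 and 0.490 FPKM at E18.5. All mice at E15.5 were above all mice at E18.5. The log2FC was -2.47 (SE 0.69, limma adjusted p = 0.246), which passed the criterion but not the adjusted p. It passed the criterion in 16 of 16 alternatives, with log2FC values between -3.15 and -1.16 and adjusted p between 0.202 and 0.734.

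Mir99a, whose gene ends close before Mirlet7c-1 in RefSeq, was at 1.68, 1.69 and 2.08 FPKM at E15.5 and at 0.998, 1.47 and 1.83 FPKM at E18.5. The groups overlapped, with a log2FC of -0.35 (SE 0.25, limma adjusted p = 0.601). The row of Mir125b-2 with C130023A14Rik was at 1.28, 1.20 and 0.756 FPKM at E15.5 and at 0.832, 0.892 and 0.758 FPKM at E18.5, again with overlap. Mirlet7a-2, of the Mir100hg locus, was at 0.841, 2.16 and 0.898 FPKM and at 0.521, 0.531 and 0.971 FPKM on the same days.

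**Figure D3:**
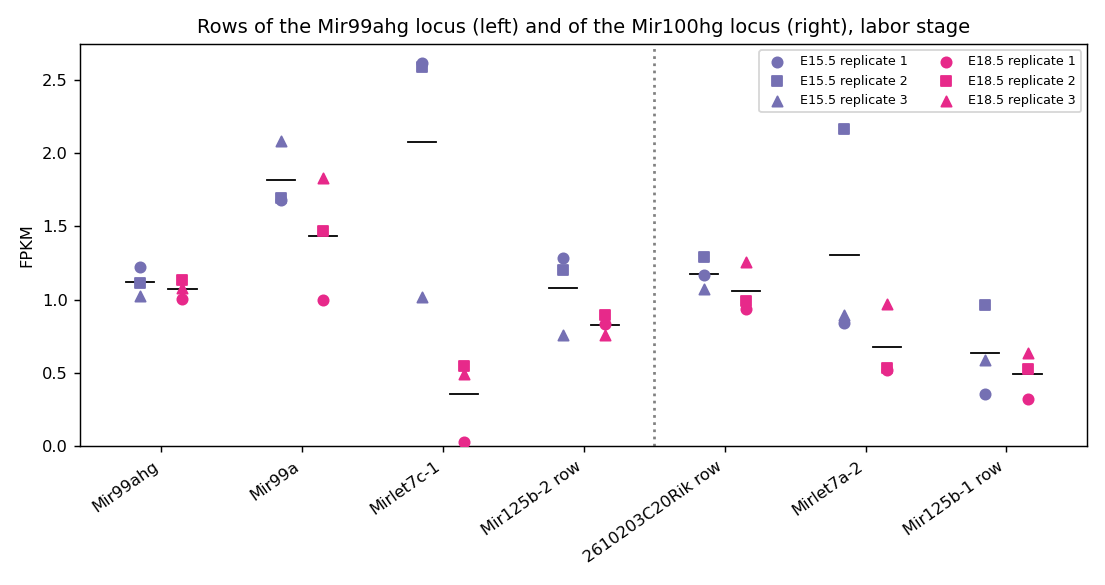
FPKM of rows at the Mir99ahg locus (left of the dotted line) and the Mir100hg locus (right) at the labor stage, with points for mice and black lines for means of 3. The Mirlet7c-1 row, at 1.02 to 2.61 FPKM at E15.5 and 0.026 to 0.544 FPKM at E18.5, is the one of these 7 rows whose groups do not overlap.

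Rows of single hairpins hold few reads. Where counts are given, at the implantation stage, the 96-base row of Mirlet7a-2 had 4, 44 and 9 counts at E0.5 and 18, 10 and 13 counts at E4.5. The row of Mir155 had 1 count in 3 libraries and 0 in the other 3, and the row of Mir100 had 0 counts in all 6. The Mir125b-2 row had 751, 621 and 989 counts at E0.5 and 475, 0 and 1086 at E4.5, so that 1 mouse was listed at 0 while the host row in the same library had 5351 counts. The let-7, miR-99 and miR-125b genes have close copies elsewhere in the genome, and how reads that match several places were assigned is not given in the sources used here.

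Over 13 pairs of rows that share transcripts between the tables, 0 differed between the stages in their day effect by the adjusted p (limma), against 2.64% of 22056 pairs. Unadjusted p under 0.05 was found for 2 of the 13, against 18.2% of all pairs. The pairs are not separate results. The implantation rows of Mir99ahg and Mir100hg and the merged row of Malat1 and Neat1 each stand in several of them, the merged row also against Sipa1. The implantation row of Mir99ahg and the labor row of Mirlet7c-1 differed by 2.84 on the log2 scale, implantation minus labor (SE 0.81, limma adjusted p = 0.0908). That pair sets the long host row against a single hairpin row, whose own labor log2FC was -2.47. It therefore does not compare the same RNA at both stages. Mir100hg and the labor row of CT025619.4 differed by 0.70 (SE 0.32, adjusted p = 0.270).

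Mir17hg had no difference between days beyond the spread. Its implantation row runs from 115042879 to 115046727 of chromosome 14, plus strand. It was at 3.30, 4.19 and 1.13 FPKM at E0.5 and at 3.98, 3.05 and 2.51 FPKM at E4.5, the lowest value being E0.5 replicate 3. The log2FC was -0.13 (SE 0.47, edgeR adjusted p = 0.914), and it changed sign to 0.25 without that library. Near labor it was at 1.33, 1.06 and 1.02 FPKM at E15.5 and at 1.33, 1.03 and 0.811 FPKM at E18.5, with a log2FC of -0.12 (SE 0.24, limma adjusted p = 0.871).

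Mir22hg was the most even of the hosts at the labor stage after Mir99ahg and the 2610203C20Rik row. Its implantation row runs from 75461539 to 75470899 of chromosome 11, plus strand. It was at 2.53, 2.65 and 3.33 FPKM at E0.5 and at 2.25, 2.10 and 4.84 FPKM at E4.5. As for Mir99ahg, the highest of the 6 was E4.5 replicate 3, the library with the ovary markers. The log2FC was -0.08 (SE 0.35, edgeR adjusted p = 0.930), and 0.38 without that library. Near labor, Mir22hg was at 8.10, 5.92 and 6.94 FPKM at E15.5 and at 7.30, 6.72 and 6.37 FPKM at E18.5, a log2FC of -0.03 (SE 0.15, limma adjusted p = 0.954).

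Mir155hg was near the limit of detection. Its implantation row, which runs from 84703167 to 84715245 of chromosome 16, plus strand, had 21, 1 and 38 counts at E0.5 and 3, 8 and 2 counts at E4.5. Its mean of 0.0949 FPKM was below the filter of 0.1 FPKM, and the groups overlapped because of E0.5 replicate 2. Fitted without that filter, its log2FC was 2.14 (SE 1.42, edgeR adjusted p = 0.492). Near labor it was at 0.772, 0.425 and 0.00723 FPKM at E15.5 and at 0.342, 0.0766 and 0.287 FPKM at E18.5. The mice at E15.5 included both the highest and the lowest value, and the log2FC was -0.23 (SE 0.80, limma adjusted p = 0.929). Without E15.5 replicate 3 it was -1.12 and without E15.5 replicate 1 it was 0.39. The sum over 9 leukocyte markers in the same libraries was 76.3 to 107 FPKM at E15.5 and 69.6 to 81.8 FPKM at E18.5, and its part in the level of Mir155hg was not tested.

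The merged row of Malat1 and Neat1 ranked 45th by mean FPKM among the 80228 named rows of the implantation table. It was at 209, 298 and 30.2 FPKM at E0.5 and at 336, 465 and 57.8 FPKM at E4.5. The replicates numbered 3 of both days were far below the other 4 libraries. The counts behind them were 92767 and 165224, against 628259 to 1338490 in the others, in libraries of 58020989 to 70906881 counts. The log2FC was -0.66 (SE 0.95, edgeR adjusted p = 0.762), and leaving out E0.5 replicate 3 gave -0.16, E4.5 replicate 2 -0.16, E0.5 replicate 2 -1.27 and E4.5 replicate 3 -1.15. Without both replicates 3 it was -0.64 (adjusted p = 0.202). Of 33859 rows with at least 1 FPKM, 97.3% had a smaller spread within days.

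Other long nuclear RNAs were low in one of these 2 libraries. Xist, which coats the inactive X chromosome, was at 0.0801 FPKM in E0.5 replicate 3, against 68.7 to 128 FPKM in the other 5 libraries. Kcnq1ot1, which silences an imprinted domain, was at 0.870 FPKM there against 5.04 to 6.65 FPKM. Of 3 RNAs without a poly(A) tail, Rpph1 was at 4.61 FPKM there against 348 to 647 FPKM, while Rn7sk, at 9551 FPKM, and Rmrp, at 3533 FPKM, lay within the range of the other libraries. In E4.5 replicate 3, Xist was at 68.7 and Kcnq1ot1 at 5.41 FPKM, while Dnm3os was at its lowest. The reason for these low values was not tested.

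**Figure D4:**
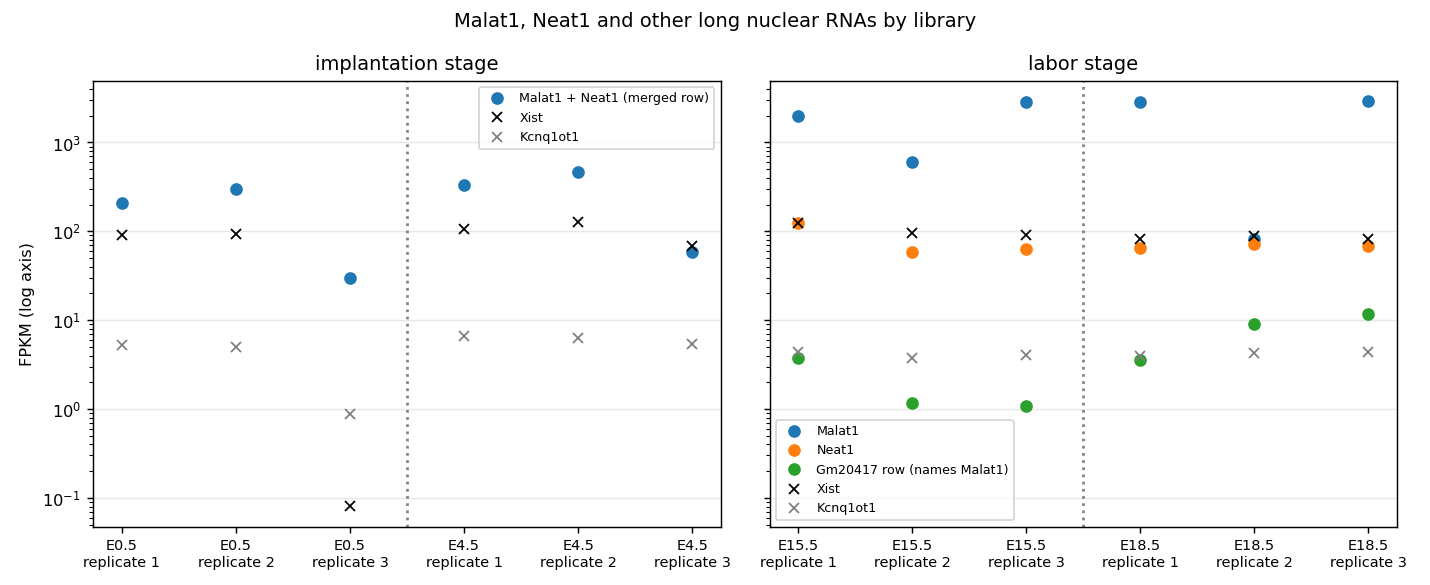
FPKM (log axis) of Malat1, Neat1, the Gm20417 row that names Malat1, Xist and Kcnq1ot1 in each library of the implantation stage (left) and the labor stage (right). In E0.5 replicate 3 the merged row, Xist and Kcnq1ot1 are all low, while in E18.5 replicate 2 Malat1 is at 82.2 FPKM beside even levels of Neat1, Xist and Kcnq1ot1.

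The value of the merged row also depends on the length the authors divided by. Counts per FPKM were 4.44 to 4.45 times those of the Dnm3os row, which for the 7.93 kb span of Dnm3os corresponds to 35.2 kb, against 27.8 kb for Malat1 and Neat1 together in RefSeq. Pcnx3 also has a row of its own at this stage, at 10.0 to 13.0 FPKM. In the labor table Sipa1 and Pcnx3 were apart from Malat1, at 2.94 to 4.94 and 2.08 to 4.49 FPKM.

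At the labor stage Malat1 was measured apart from Neat1. Malat1 was at 1978, 608 and 2878 FPKM at E15.5 and at 2865, 82.2 and 2908 FPKM at E18.5. The replicates numbered 2 of both days were the low ones, and the other 4 mice lay between 1978 and 2908 FPKM. Malat1 ranked 13th to 46th among all rows of the labor stage in 5 libraries and 305th in E18.5 replicate 2. The log2FC was -0.78 (SE 1.43, limma adjusted p = 0.853), and 99.6% of 18416 rows with at least 1 FPKM had a smaller spread within days. It was 0.93 without E18.5 replicate 2, and 0.27 without both replicates 2, so its direction rests on 1 library.

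The highest value of Malat1 was 35.4 times the lowest, and that of Neat1 2.08 times. Neat1 was at 123, 59.1 and 63.2 FPKM at E15.5 and at 64.8, 71.1 and 68.7 FPKM at E18.5. All mice but E15.5 replicate 1 lay between 59.1 and 71.1 FPKM. The log2FC was -0.18 (SE 0.28, limma adjusted p = 0.825), and 0.16 without E15.5 replicate 1. Xist was at 82.2 to 123 FPKM and Kcnq1ot1 at 3.77 to 4.4 FPKM across these 6 libraries. Of the 2 low Malat1 libraries, E15.5 replicate 2 had the lowest Neat1 and Kcnq1ot1 of the 6, and E18.5 replicate 2 the lowest of none of these 3 RNAs.

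The level of Malat1 per Neat1 was 16.1, 10.3 and 45.5 at E15.5 and 44.2, 1.16 and 42.3 at E18.5. The other mice at E18.5 lay within the range at E15.5. Its log2 mean differed by -0.60, E18.5 minus E15.5 (two-sided exact permutation p = 0.8, where 3 mice against 3 cannot give less than 0.1). With each library left out the difference ranged from -1.49 (without E18.5 replicate 1) to 1.14 (without E18.5 replicate 2), and it was 0.0077 without E15.5 replicate 3.

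The row of Gm20417 with Malat1, Syvn1, Slc25a45 and Gm37376, which holds 2 Ensembl transcripts, was at 3.71, 1.17 and 1.09 FPKM at E15.5 and at 3.59, 9.13 and 11.6 FPKM at E18.5. Replicates 2 and 3 of E18.5 were above all others, while replicate 1 of E18.5 was just below replicate 1 of E15.5. The log2FC was 2.04 (SE 0.58, limma adjusted p = 0.247), and it passed the criterion in 15 of 16 alternatives. Without both replicates 2 it was 1.62 and did not pass. The row with most of the Malat1 transcripts had its lowest value in E18.5 replicate 2, in which this row was at 9.13 FPKM. Syvn1 and Slc25a45, protein-coding genes named in it, have rows of their own at 3.06 to 4.60 and 3.11 to 5.26 FPKM, with log2FC values of 0.19 and 0.21 (limma adjusted p = 0.672 and 0.725). Which of the merged genes the reads came from cannot be told from the table.

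At the implantation stage, 2 pieces named Malat1 lay on the plus strand, opposite to Malat1, and summed to 3, 1483 and 1 counts at E0.5 and to 723, 2 and 4429 counts at E4.5. High and near-empty libraries occurred on both days. One piece of Malat1 passed the criterion, with an adjusted p of 0.244 (edgeR). It had 0 counts in every mouse at E0.5 and 19, 0 and 334 counts at E4.5. The labels name poly(A) selection and the study's methods name removal of ribosomal RNA, and Rn7sk, an RNA without a poly(A) tail, was at 5159 to 12165 FPKM in the implantation table and 34501 to 45490 FPKM in the labor table.

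The proteins of the member pathways were counted from lists. Among 18 tested genes of microRNA processing and action, 0 passed the criterion at either stage (edgeR, 2 with an unadjusted p under 0.05 at the implantation stage, both lower at E0.5, and limma, 0 at the labor stage). Over all rows 12.1% and 5.6% passed the criterion, and 17.6% and 12% had such a p. Drosha and Dgcr8 cut the hairpin from the host, and their log2FC values were -0.20 and -0.63 at E0.5 (adjusted p = 0.532 and 0.10) and 0.23 and 0.15 at E18.5 (adjusted p = 0.685 and 0.675). Dgcr8 was at 3.67, 3.11 and 3.44 FPKM at E0.5 and at 5.45, 5.74 and 4.92 FPKM at E4.5, without overlap. Dicer1 had log2FC values of -0.28 and 0.04 at the 2 stages (adjusted p = 0.367 and 0.908). The estimates were lower for 11 of 18 at E0.5 and higher for 16 of 18 at E18.5.

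Of 15 paraspeckle proteins, 0 passed the criterion at either stage, with 4 at an unadjusted p under 0.05 at the implantation stage, all lower at E0.5, and 1 at the labor stage, higher at E18.5. Over all rows 17.6% had such a p in the first comparison and 12% in the second, and 12.1% and 5.6% passed the criterion. Without E0.5 replicate 1 the first count by the criterion was 1. The median log2FC was -0.31 at E0.5, against -0.03 for all rows, and 0.22 at E18.5, against 0.02. Sfpq, Nono and Pspc1 bind Neat1 to build the paraspeckle core. Their log2FC values were -0.43, 0.06 and -0.61 at E0.5 (adjusted p = 0.338, 0.868 and 0.152) and 0.07, 0.34 and 0.22 at E18.5 (adjusted p = 0.879, 0.452 and 0.581). Pspc1 was at 4.06, 3.68 and 4.24 FPKM at E0.5 and at 5.43, 5.60 and 7.65 FPKM at E4.5.

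Of 16 nuclear speckle proteins, 0 passed the criterion at either stage, with 2 below an unadjusted p of 0.05 in the implantation table and 0 in the labor table, against 17.6% and 12% of all rows, of which 12.1% and 5.6% passed the criterion. The speckle scaffold Srrm2 was at 34.1, 34.4 and 32.9 FPKM at E0.5 and at 24.8, 26.7 and 24.9 FPKM at E4.5, a log2FC of 0.43 (edgeR adjusted p = 0.197). The splicing factor Srsf1, which binds Malat1, was at -0.43 on that scale (adjusted p = 0.266). Son, the other scaffold, was at -0.26 (adjusted p = 0.488). At E18.5 the log2FC values of Srsf1, Srrm2 and Son were 0.17, 0.51 and 0.01 (limma adjusted p = 0.912, 0.495 and 0.984).

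Of 17 tested transcription factors known to act on the hosts, 4 passed the criterion at the implantation stage, against 12.1% of all rows. Mycn was higher at E0.5 than at E4.5, with a log2FC of 1.29 (edgeR adjusted p = 0.113), and did not pass without both replicates 3 (0.87). Myc and E2f1, which drive the Mir17hg promoter in proliferating cells, were lower at E0.5 than at E4.5, by 1.82 and 1.58 on the log2 scale (edgeR adjusted p = 0.144 and 0.123). E2f1 did not pass with limma on log2(FPKM + 1) (-0.72). Hif1a was lower at E0.5 by 1.33 (edgeR adjusted p = 0.0486, and 0.0028 to 0.201 with each library left out). Myc was at 2.89, 2.63 and 3.37 FPKM at E0.5 and at 14.1, 14.2 and 3.46 FPKM at E4.5, where replicate 3 was near the level of E0.5. Twist1, known to drive Dnm3os, and Zeb1, a factor of mesenchymal cells, had log2FC values of 0.13 and -0.72 (adjusted p = 0.829 and 0.219). Between E15.5 and E18.5, 1 of 17 passed, a share near the 5.6% of all rows. This was Fosb, with a log2FC of 2.01 (limma adjusted p = 0.216), and 0 passed with a pseudocount of 1 (Fosb 0.83) or when only rows averaging 1 FPKM or more were tested. Myc, Twist1 and Zeb1 were at 0.04, -0.06 and -0.03.

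Among known targets of the hosted microRNAs, 3 of 23 tested genes were higher and 1 lower at E0.5 than at E4.5 by the criterion. At E18.5 against E15.5, 2 of 24 were higher and 0 lower, and 6 had an unadjusted p under 0.05, all higher. At E0.5 8 of 23 had such a p, 6 higher and 2 lower. Over all rows 12.1% passed the criterion at E0.5 and 5.6% at E18.5, and 17.6% and 12% had such a p. Bmf, a cell death gene targeted by miR-125b, was higher at E0.5, with a log2FC of 2.41 (edgeR adjusted p = 0.0138, and 0.0029 to 0.102 with each library left out). Ptgs2, the inducible prostaglandin synthase and a target of miR-199a, was at 11.6, 5.26 and 12.3 FPKM at E0.5 and at 0.996, 0.936 and 0.151 FPKM at E4.5. It was thus higher at E0.5, with a log2FC of 3.81 (edgeR adjusted p = 0.0660). It was at 3.39, 0.943 and 1.23 FPKM at E15.5 and at 3.91, 5.89 and 3.56 FPKM at E18.5, a rise of 1.40 on the log2 scale (limma adjusted p = 0.304). That call was lost without E15.5 replicate 2 (1.05), E15.5 replicate 3 (1.22) or E18.5 replicate 2 (1.18). Without both replicates 2 the log2FC was 0.83, below the fold limit. Dnm3os, the host of Mir199a-2, had its higher group on the same days as Ptgs2, without passing the test. Cdkn1a was higher at E0.5 by 1.29 (edgeR adjusted p = 0.0708, not passing with limma on log2(FPKM + 1), at 0.87), and Thbs1 was higher at E18.5 by 1.37 (limma adjusted p = 0.173). The gene that was lower at E0.5 was Prdm1, named here after its value was seen. Esr1, a miR-22 target and the estrogen receptor, had log2FC values of 0.23 and 0.22 (adjusted p = 0.819 and 0.561).

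Of 11 other microRNA host RNAs tested at the implantation stage, 0 were higher and 3 lower at E0.5 by the criterion, which 12.1% of all rows passed. The imprinted hosts Rian, Mirg and H19 fell by 1.44, 1.74 and 1.91 on the log2 scale (edgeR adjusted p = 0.128, 0.129 and 0.186). H19 did not pass without E0.5 replicate 1 (-1.63), E0.5 replicate 2 (-1.94) or E4.5 replicate 1 (-1.18), nor with a replicate block (-1.69). Rian and Mirg did not pass with limma on log2(FPKM + 0.1) (-1.16 and -1.21) or without both replicates 3 (-0.88 and -1.27). With limma on log2(FPKM + 1) none of the 3 passed (Rian -0.46, Mirg -0.34, H19 -0.94). Near labor, 1 of 8 fell, against 5.6% of all rows passing. It was Mir142hg, the host of a blood cell microRNA, which was at 3.61, 2.39 and 1.24 FPKM at E15.5 and at 0.723, 0.360 and 0.536 FPKM at E18.5 (log2FC -1.89, adjusted p = 0.168 from limma). Of the 7 tested leukocyte markers 6 had lower estimates at E18.5, with a median log2FC of -0.25. By the criterion 0 passed, and 1 had an unadjusted p under 0.05 (limma). Ptprc was at 5.85 to 9.93 FPKM at E15.5 and 3.60 to 3.88 FPKM at E18.5. The part of the leukocyte markers in the fall of Mir142hg was not tested.

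The makeup of the tissue also differed between days. Smooth muscle markers were present in all libraries, with 6 of 6 above 0. Their estimates were higher for 6 of 6 at E0.5 and for 5 of 6 at E18.5, with 0 past the criterion at either stage. Of 7 uterine stroma markers, 2 had higher and 5 lower estimates at E0.5, and likewise at E18.5, with 0 past the criterion. The sum over 6 epithelial markers was 217 to 255 FPKM at E0.5 and 72.8 to 150.6 FPKM at E4.5, and 197 to 412 FPKM at E15.5 and 593 to 819 FPKM at E18.5, with 3 of 6 past the criterion at each stage, against 12.1% and 5.6% of all rows, the background for the other markers too. This epithelial sum was higher on the days on which Dnm3os was higher, at both stages. Most smooth muscle estimates were higher on those days too, and most stroma estimates lower. The sum over 4 endothelial markers was lower on those days, at 16.9 to 19.5 FPKM at E0.5 against 26.5 to 47.8 FPKM at E4.5, and 66.1 to 94.5 FPKM at E18.5 against 136 to 167 FPKM at E15.5. All 4 had lower estimates at both stages, and 1, Cdh5, passed the criterion at each. The sum over 9 leukocyte markers was 25.8 to 32.4 FPKM at E0.5 and 19.2 to 21.8 FPKM at E4.5. Of 6 tested, 3 had higher and 3 lower estimates at E0.5, with a median log2FC of -0.15. Csf1r and Adgre1 passed the criterion, with log2FC values of 1.88 and 1.11 (edgeR adjusted p = 0.0442 and 0.115). The sum over the 5 trophoblast and placenta markers found in the labor table was 3.60 to 35.3 FPKM at E15.5 and 47.2 to 67.0 FPKM at E18.5, while at the implantation stage it was at most 0.268 FPKM, with Prl3b1, Tpbpa, Gcm1 and Ctsq at 0 in all libraries. At the labor stage Tpbpa, at 1.41 to 6.20 FPKM and 31.9 to 52.7 FPKM, made up most of the difference and was the 1 marker of 5 past the criterion, with 3 estimates higher and 2 lower at E18.5. The part of these cell types in the values of Dnm3os and Mir155hg was not tested.

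The protein-coding genes with the profile nearest to a member were found over the 12 libraries, each table centred on its own mean, as the smallest root mean square difference of log2(FPKM + 0.1) among 9165 genes. Mid2 and Ak3 were nearest to Mir99ahg, at 0.08 and 0.10, and Ccdc90b and Ccdc91 to Mir22hg, at 0.09 and 0.11. Ppl and Pmm1 were nearest to Dnm3os at 0.23 and 0.24, and Cers6 and Nfyb to Mir17hg at 0.24 each. Il33 and Rab12 lay at 0.58 and 0.59 from Mir155hg and Tlr4 and Mfap3 at 0.55 and 0.57 from Neat1. For Malat1 the nearest, Zfp12 and A4galt, were still 1.31 and 1.32 away. For Malat1 and Neat1 the merged row stood for the implantation stage. The root mean square of a member's own centred profile was 0.26 for Mir99ahg, 0.29 for Mir22hg and 1.67 for Malat1.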

How the data were processed

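RNA of 12 whole mouse uteri was sequenced by the authors, who deposited 1 table of genes for each stage. The authors trimmed reads with Cutadapt, mapped them with Bowtie2 and Tophat2 and estimated FPKM with StringTie and Ballgown, and the submitters' processing notes also name HISAT2 2.0, StringTie 1.3.0 and Bowtie 0.12.2. Both tables hold the deposited FPKM values, and the table of the implantation stage also holds the authors' whole-number counts per row. How reads were assigned to rows is not given in the sources used here. The labels name the builds mm8 and mm10, and the positions match RefSeq genes of GRCm38. The table of the implantation stage writes 0.0001 for 0, which was set back to 0. Totals were 58020989 to 70906881 counts per library. The table of the labor stage holds FPKM without counts, so the depth behind its values is unknown here. Sequences of the members were not used here.

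Counts were tested with edgeR 4.0.16 (TMM, quasi-likelihood F-test) and labor FPKM values, as log2(FPKM + 0.1), with the trended limma 3.58.1, in R 4.3.3. The pseudocount understates changes of low rows. Rows without a gene name (7007 at the implantation stage, 1.02% to 1.86% of counts) stayed out, and rows entered with a mean of at least 0.1 FPKM. P-values were adjusted after Benjamini and Hochberg across every tested row of the table. The difference between stages was fitted with limma over the 12 libraries for rows that share Ensembl transcripts. Both tests were run on simulated data first. Genes named from lists are fixed names and up to 3 per list and stage with the smallest p among those past the criterion. The members and lists were chosen with earlier results of these data known. Alternatives were other normalizations, DESeq2 1.42.0, limma on FPKM for the implantation stage, other pseudocounts and filters, a replicate block and fits that leave out 1 library. Leaving out 2 libraries at once and including rows without a name were chosen after seeing the data. Python 3.11.15, pandas 2.3.3, NumPy 2.4.6, SciPy 1.17.1 and matplotlib 3.10.9 were used.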

Additional observations from a re-analysis of the deposited data

How the results depend on the processing

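Member rows past the adjusted p at the implantation stage ranged from 0 to 1 with each library left out, 1 being Mir99ahg without E4.5 replicate 3, and member rows past the criterion at the labor stage ranged from 1 to 2, and were 0 with both replicates 2 left out. Of 1192 values of single rows and lists, 1114 kept their direction and side of the threshold, 45 reversed, 20 no longer passed, 3 passed newly and 10 moved.

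Reversed log2 fold changes follow. At the implantation stage Mir22hg was at 0.024 with upper quartile factors and 0.25 with both replicates 3 left out, where Mir17hg was at 0.094 and Esr1 at -0.20. At the labor stage, with both replicates 2 left out, Mir155hg was at 0.44, Malat1 at 0.27, Dicer1 at -0.010, Srsf1 at -0.20 and Twist1 at 0.0051, and Mir155hg was at 0.21 with a pseudocount of 0.01. Scaling to the 75th percentile gave Dicer1 -0.023, Son -0.058 and Myc -0.020, and quantile normalization Dicer1 -0.017 and Myc -0.0094. With each library left out, implantation values ranged from -0.30 to 0.38 for Mir22hg, -0.52 to 0.25 for Mir17hg, -0.11 to 0.57 for Esr1 and -0.0041 to 0.11 for Nono. Labor values ranged from -0.11 to 0.0030 for Mir99ahg, -1.12 to 0.39 for Mir155hg, -1.64 to 0.93 for Malat1, -0.37 to 0.16 for Neat1, -0.14 to 0.080 for Mir22hg, -0.28 to 0.043 for Mir17hg, -0.56 to 0.048 for Gm28119 with Mir125b-1, -0.037 to 0.13 for Sfpq, -0.13 to 0.68 for Srsf1, -0.041 to 0.038 for Son, -0.12 to 0.22 for Myc, -0.17 to 0.0074 for Twist1 and -0.16 to 0.17 for Zeb1. The cause of these reversals was not tested beyond the libraries left out.

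The replicate numbers are not stated to pair mice, and deviations of mice with the same number correlated at -0.07 to 0.03. With a replicate block Mir22hg was at 0.0069 at the implantation stage, and rows past the adjusted p were 0 at the implantation stage, 4 at the labor stage and 71 for the difference, against 739, 13 and 583 without it. By the adjusted p, the implantation stage gave 5297 rows with DESeq2, 1172 with a mean of at least 1 FPKM, 2336 without both replicates 3 and 0 to 3526 with each library left out, the labor stage 0 to 34 over its alternatives and the difference 193 to 1271 with each library left out. Rows past the criterion were 2545 with limma and a pseudocount of 1 and 4024 with a mean of at least 1 FPKM, against 6387, and 442 and 711 at the labor stage, against 1657. Upper quartile factors moved the median of all implantation rows from -0.03 to 0.07 and gave 3711 higher of 6451 calls, against 3233 of 6387. With 3 mice a day, low rows such as Mir155hg allow no firm statement.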
